A study of Mus musculus with 15 samples.

Results

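The kinesin, dynein and dynactin motor genes were examined in mouse cortex 1 month after HF-HI (high-frequency head impact), in which mice under anesthesia are struck on the head several times a day for several days. The members are all listed transcripts annotated as protein_coding in GENCODE M21 whose gene name starts with Kif or Klc and a digit, with Dync or with Dctn. They number 52 transcripts of 31 genes, out of 10370 listed transcripts. Total RNA of dissected cortex was sequenced from male C57BL/6 mice with an age of 12 weeks in the labels. The 8 HF-HI libraries came from impacted mice, and the 7 Sham libraries came from mice that were handled and anesthetized in the same way without impacts. No allele or drug separates the groups. The labels number the libraries within a group but do not say whether each is a separate mouse, so p-values measure the spread between these libraries.

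Motor proteins move cargo along microtubules. Most kinesins walk towards the plus end of the microtubule, which in axons points away from the cell body, and carry vesicles, mitochondria and other cargo outwards. Cytoplasmic dynein walks the other way, and the dynactin complex joins it to its cargo and keeps it on the track. In cortical neurons these motors supply synapses that lie far from the nucleus.

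Not every gene of these families could be followed. In the annotation, 56 protein-coding genes with 181 protein_coding transcripts carry such names, and 25 of these genes had no listed transcript. The lowest mean among listed transcripts was 107.9 normalized counts, and rarer transcripts were not analysed here. Among the 53 listed transcripts with a matching name, 1 is not a member because it is annotated for nonsense-mediated decay (Kif21b-204). It still counts in the level per kb, the gene sum and the share test of Kif21b, which cover all listed transcripts of a gene. Kif1bp matches the name rule, although it encodes a protein that binds kinesins and not a motor. Of the 31 genes, 20 had a single listed member transcript and 11 had several. Transcripts of the same gene share sequence and are not independent of each other.

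The libraries differed in depth, and depth moved with the group. Recovered reads in listed transcripts spanned 5798810 to 10582858 in Sham against 3496103 to 8666307 in HF-HI. On average, the log2 size factor, which scales a library to the common depth, had a difference of −0.55, HF-HI minus Sham (two-sided exact permutation p = 0.0280). It no longer passed 0.05 when Sham replicate 1, 4 or 5 was left out (exact permutation p = 0.0516, 0.0539 and 0.0516). On the first principal component over all transcripts, with 14.3% of the variance, HF-HI replicate 2 stood at 12.6 and the other libraries between −3.35 and 0.72. Markers of cortical excitatory neurons, astrocytes and oligodendrocytes were listed in full. Those of motile cilia were not listed, and of the choroid plexus markers Ttr was listed and spanned 34.97 to 6685 normalized counts in Sham and 21.04 to 8663 in HF-HI. The summed level of 6 striatal marker genes spanned 5880 to 8753 normalized counts in Sham against 3712 to 7621 in HF-HI. Of the marker transcripts, 2 of 10 striatal and 1 of 4 microglial ones were lower in HF-HI (limma, threshold 0.05 unadjusted) and 1 of 6 of excitatory neurons was higher, and none was called among those of inhibitory neurons, astrocytes, oligodendrocytes, endothelium or choroid plexus. Over all transcripts 3.9% were lower and 4.94% higher at this threshold. No marker transcript passed an adjusted p of 0.1. With lists this short, single calls do not describe the mix of cells. The part that depth and dissection play in the differences below was not tested, other than by the values given beside them. In bulk tissue, fewer cells of a type and less RNA per cell cannot be told apart.

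Levels were compared between genes as normalized counts per kb of transcript, summed over the listed transcripts of a gene. The kinesin-1 heavy chain gene Kif5a, known for its neuronal expression, had the highest level with 2547 ± 85.9 in Sham against 2536 ± 86.7 in HF-HI (SD, n = 7 and 8). Its Sham libraries did not overlap those of the gene next in order. That gene was Kif5c, a second neuronal heavy chain of kinesin-1, with 1638 ± 64.2 in Sham against 1685 ± 59.6 in HF-HI.

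Kif1a, which carries precursors of synaptic vesicles, followed with 1606 ± 113 in Sham against 1687 ± 89.5 in HF-HI and overlapped Kif5c. Klc1, a light chain that ties kinesin-1 to cargo, had 1427 ± 40.0 in Sham against 1465 ± 51.2 in HF-HI and overlapped Kif1a. Kif1b, a close relative of Kif1a, had 1048 ± 31.1 in Sham against 1100 ± 36.7 in HF-HI. Dync1h1, the heavy chain that holds the motor domain of cytoplasmic dynein, had 822 ± 20.1 in Sham against 863 ± 21.2 in HF-HI. Klc1, Kif1b and Dync1h1 did not overlap each other in the Sham libraries, so their order held in this group. Kif5b, the heavy chain that most cells make, came after them with 593 ± 40.3 in Sham and overlapped Dctn2, a dynactin subunit, at 581 ± 34.9.

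The lowest levels belonged to Kif16b at 44.7 ± 4.31, Kif13a at 49.6 ± 2.10 and Klc4 at 53.5 ± 1.12 normalized counts per kb in Sham, whose ranges overlapped from each to the next. The other 20 genes lay between 72.9 and 536 per kb in Sham, where many neighbours overlapped. These levels cover listed transcripts and would rise for a gene with further transcripts below the lowest listed mean.

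**Figure D1:**
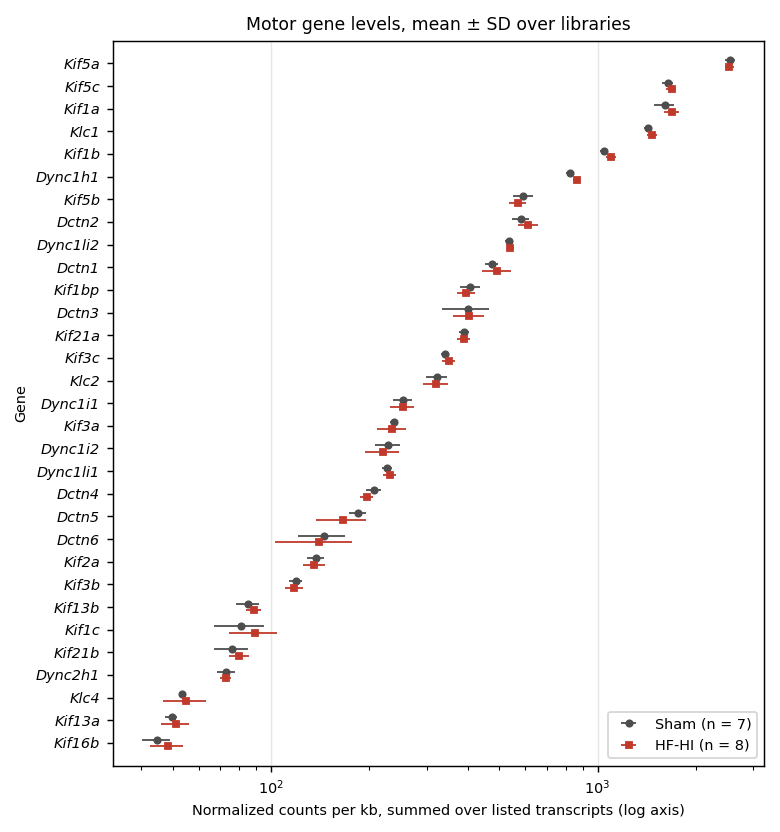
Level of each of the 31 motor genes, as normalized counts per kb summed over listed transcripts (log axis), with points for the group mean and bars for the SD over 7 Sham (circles) and 8 HF-HI (squares) libraries. Kif5a stands highest at 2547 in Sham, Kif16b lowest at 44.7, and the groups lie close together for every gene.

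The levels of the 52 motor transcripts were then compared between HF-HI and Sham with limma on the deposited variance-stabilized (VSD) values. VSD is a log2 scale that compresses low counts, so that a doubling from 300 normalized counts moves it by 0.33 and a doubling from 10000 by 0.89. No motor transcript passed a Benjamini-Hochberg adjusted p of 0.1 in limma (0 of 52, with the smallest at 0.404), nor in voom on the recovered reads, and over all 10370 transcripts the share called was 0%. At an unadjusted p under 0.05 the count was 6 of 52 (11.5%), both in limma and in voom, beside 8.83% of all transcripts. Of these 5 were higher in HF-HI, where 4.94% of all transcripts were called, and 1 was lower, where 3.9% were called. The median log2 ratio of mean normalized counts was 0.02 over the 52 members and −0.0019 over all listed transcripts. Between the lowest and the highest member it ran from −0.34 (Dync1i1-203) to 0.45 (Klc1-203).

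The 6 transcripts came from 4 genes and 5 of the role groups had none. They were 2 transcripts of Klc1 in opposite directions, 2 of Kif1b, and 1 each of Kif21b and Dync1h1. With the log2 size factor as a covariate 2 of the 52 had an unadjusted p under 0.05, of which Kif1b-201 was among the 6 and Kif3a-201 was not. In the 9 libraries with a size factor above 1 (6 Sham, 3 HF-HI) none of the 6 did, and the 1 transcript under 0.05 was Dctn3-201. The share of all listed transcripts under 0.05 was lower too, at 5.14% with the covariate and 5.22% in these 9 libraries. In every one of the 52 transcripts the Sham and HF-HI libraries overlapped. How many of all listed transcripts do so was not counted, so this is not read as a trait of the motor transcripts.

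**Figure D2:**
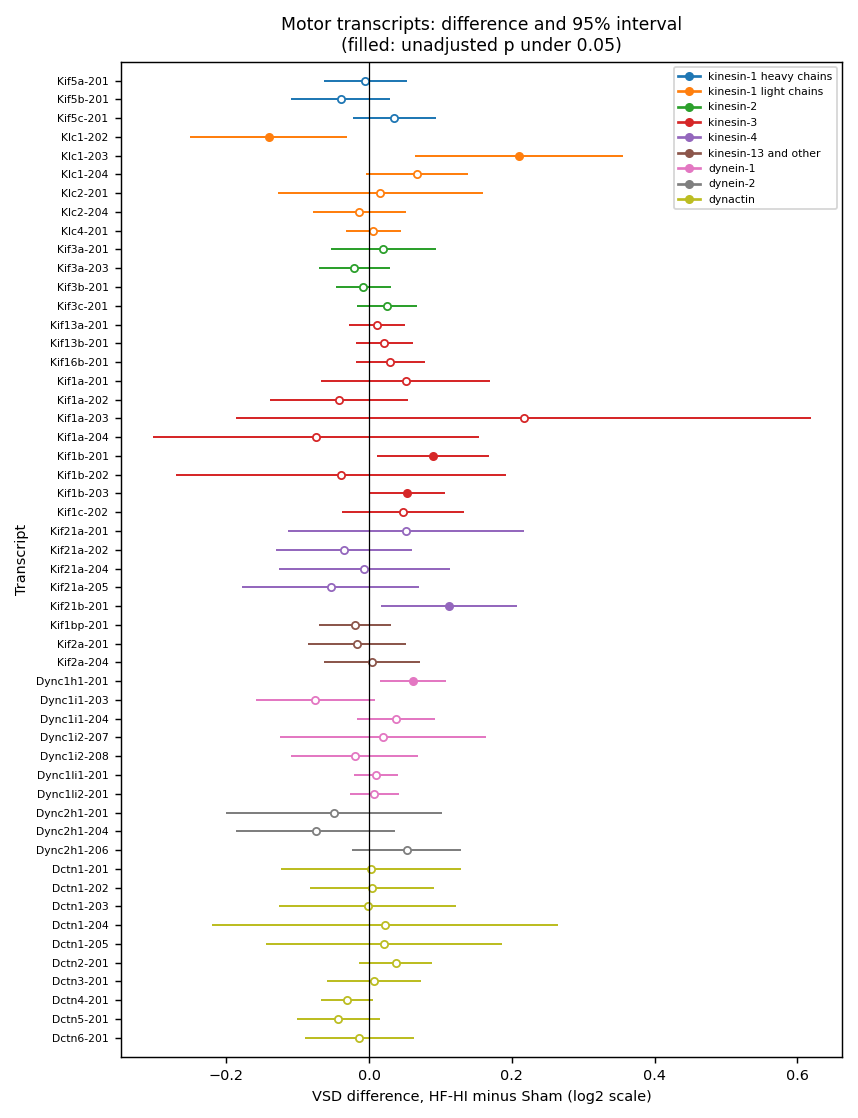
VSD difference (HF-HI minus Sham, log2 scale) of the 52 motor transcripts, grouped by color into role groups, with lines for the 95% interval from limma over 7 Sham and 8 HF-HI libraries and filled points for an unadjusted p under 0.05. Klc1-203 at 0.21 and Klc1-202 at −0.14 lie on opposite sides of 0, and Kif1a-203 has the widest interval.

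The kinesin-1 light chains are described first, since Klc1 held the member with the smallest p in either direction. Klc1 encodes the light chain that sits on the tail of the kinesin-1 heavy chains and recognizes cargo, and its transcripts are spliced in several ways at the end of the coding sequence. The 3 listed transcripts lie on chromosome 12, plus strand, of GRCm38 (mm10). Klc1-202 (ENSMUST00000118471, 111758956 to 111794897) has a coding sequence of 542 codons, Klc1-203 (ENSMUST00000120544, 111772319 to 111794895) of 560 and Klc1-204 (ENSMUST00000122300, 111759013 to 111806727) of 608.

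Klc1-202 and Klc1-203 share 2183 bases. Klc1-203 holds 78 bases that Klc1-202 lacks. They are 27 that extend a coding exon (111789460 to 111789486) and an exon of 51 bases (111793649 to 111793699) with its stop codon. Klc1-202 holds 89 bases that Klc1-203 lacks, of which 87 form a first exon outside the coding sequence (111758956 to 111759042). Klc1-204 was not part of this comparison, and it starts within that exon, at 111759013. Reads that tell Klc1-202 and Klc1-203 apart must cover these stretches or their junctions. The counts of each are estimates made from all reads of the gene. The ends of both coding sequences, from base 111789430 to the stop codon, are printed to show where the proteins part. They come from the GENCODE M21 transcripts and read 5′ to 3′. Capitals mark where the coding sequences differ, stop codon included, and lower case where they are shared.
Klc1-202: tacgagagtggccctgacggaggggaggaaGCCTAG
Klc1-203: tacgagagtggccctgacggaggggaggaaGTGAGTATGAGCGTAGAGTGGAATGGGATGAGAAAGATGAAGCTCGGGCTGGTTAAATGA
After the shared exon Klc1-202 goes on for 6 bases, whereas Klc1-203 goes on for 60 bases to its own stop codon. The 6 bases are also part of the Klc1-203 transcript, where they follow its stop codon and are not coding.

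Klc1-203 had a lowest, median and highest value of 622, 908 and 1063 normalized counts in Sham, against 898, 1106 and 1628 in HF-HI. In 7 of 8 HF-HI libraries it exceeded the median of Sham, the highest being HF-HI replicates 2 and 4, and the lowest Sham values were replicates 2 and 5. The mean was 862 ± 166 in Sham against 1181 ± 261 in HF-HI (SD). On the VSD scale the difference was 0.21 (95% interval 0.07 to 0.35, limma unadjusted p = 0.00737, adjusted p = 0.404).

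Klc1-202 went the other way, from 1801, 1928 and 2242 in Sham to 1298, 1717 and 2090 in HF-HI. In 7 of 8 HF-HI libraries it was under the median of Sham. The VSD difference was −0.14 (95% interval −0.25 to −0.03, limma unadjusted p = 0.0143, adjusted p = 0.448). Klc1-204 had a mean of 403 in Sham against 466 in HF-HI (limma unadjusted p = 0.0586). The sum over the gene was nearly level, at 3237 ± 90.5 normalized counts in Sham against 3321 ± 116 in HF-HI, a log2 difference of 0.04 (voom, unadjusted p = 0.192, 95% interval −0.02 to 0.09).

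**Figure D3:**
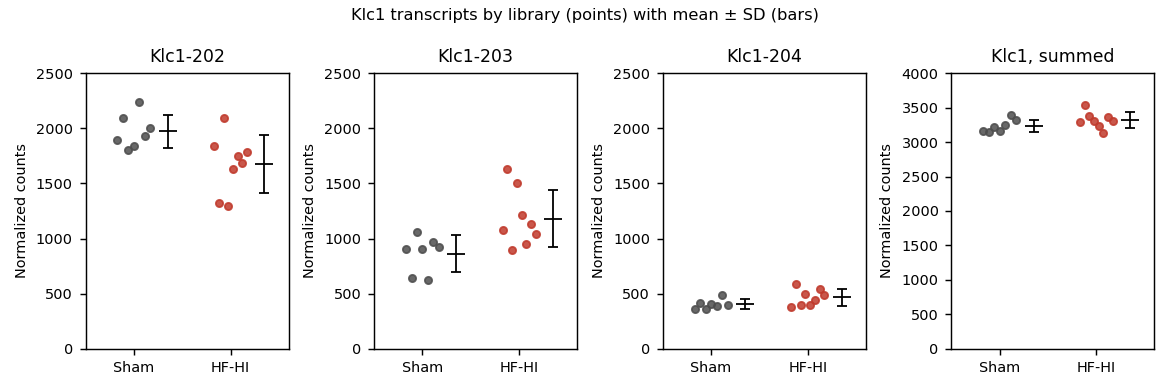
Normalized counts of the 3 listed Klc1 transcripts and of their sum in each Sham and HF-HI library (points), with mean and SD as bars and axes from 0. Klc1-202 is lower and Klc1-203 higher in most HF-HI libraries, while the sum stays between 3139 and 3537 in all HF-HI libraries.

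To ask whether transcripts of a gene moved differently, the share of each within its gene was tested across all genes with several listed transcripts (limma diffSplice on voom weights). Of 33 testable motor transcripts, 5 passed an unadjusted p of 0.05 (15.2%), beside 13.3% of all 4138 transcripts tested. These 5 came from Klc1, Dync1i1 and Kif21b. At an adjusted p under 0.1 there were 2 (6.06%), beside 1.5% of all, and both were Klc1. Shares within a gene move against each other, so the 2 are not independent results, and the same holds for shares counted over all genes. The share of Klc1-202 fell by 0.55 on the log2 scale relative to the other Klc1 transcripts (diffSplice adjusted p = 0.0347), and that of Klc1-203 rose by 0.53 (diffSplice adjusted p = 0.0436).

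As a percentage of the listed Klc1 counts, Klc1-203 made up 19.1 to 33.0% in Sham, with a median of 28.6%, and 26.5 to 46.0% in HF-HI, with a median of 33.2%. Klc1-202 made up 55.9 to 68.9% in Sham, with a median of 59.97%, and 37.5 to 61.8% in HF-HI, with a median of 52.1%. The log2 ratio of Klc1-203 to Klc1-202 was −1.22 ± 0.40 in Sham and −0.52 ± 0.53 in HF-HI (SD). It was above 0 in HF-HI replicates 2 (0.30) and 4 (0.21), where Klc1-203 was the more abundant of the pair.

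These libraries were among the shallowest, with size factors of 0.65 and 0.50. With both left out, a setting chosen after seeing the data, the share differences were −0.37 and 0.38 (diffSplice unadjusted p = 0.00295 and 0.00351, adjusted p = 0.163 and 0.167). With the log2 size factor as a covariate they were −0.29 and 0.31 (diffSplice unadjusted p = 0.0543 and 0.0486, adjusted p = 0.524 and 0.516), and in the 9 deeper libraries, also chosen after seeing the data, −0.37 and 0.43 (diffSplice unadjusted p = 0.0215 and 0.0139, adjusted p = 0.448 and 0.447). The direction was the same in all 3 settings, and neither share passed the adjusted threshold in any of them. The Klc1-203 share also missed it without Sham replicate 2 (diffSplice adjusted p = 0.123), Sham replicate 5 (0.118) or HF-HI replicate 4 (0.109).

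Within Sham the log2 ratio and the log2 size factor had Pearson's r of −0.29 and Spearman's rho of −0.25 (n = 7, exact permutation p = 0.598 and 0.595). Within HF-HI they had r of −0.68 and rho of −0.43 (n = 8, exact permutation p = 0.0836 and 0.299). Adjusted over the 2 groups, the values were 0.598 and 0.167 for r and 0.595 in both groups for rho. Without the pair of libraries farthest from the median size factor, r was −0.22 in Sham (replicates 2 and 3 left out) and −0.64 in HF-HI (replicates 4 and 7 left out). HF-HI replicate 2 stayed in, and r without both HF-HI replicates 2 and 4 was not computed.

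**Figure D4:**
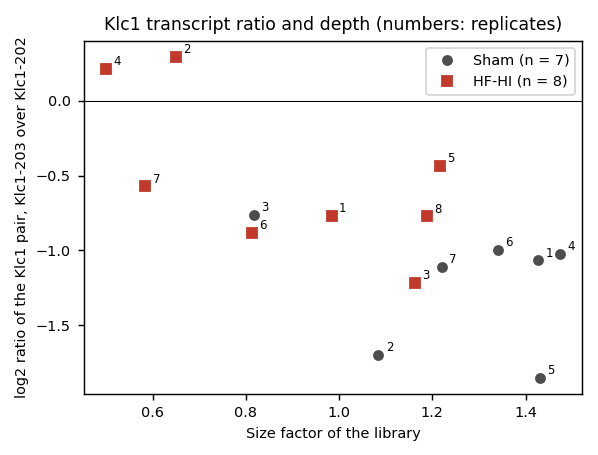
log2 ratio of Klc1-203 to Klc1-202 (y axis) against the size factor of the library (x axis), with circles for Sham, squares for HF-HI and the replicate number beside each point. HF-HI replicates 2 and 4 stand at 0.30 and 0.21 with size factors of 0.65 and 0.50, while the Sham libraries lie between −1.85 and −0.76.

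The other light chains did not pass the test. Klc2-204 (ENSMUST00000116563), the main listed transcript of a second neuronal light chain, had 735, 818 and 850 normalized counts (lowest, median, highest) in Sham against 658, 801 and 933 in HF-HI (limma unadjusted p = 0.660). Klc4 was low in both groups, with means of 124 and 128. The 3 heavy chains of kinesin-1 were not called either. Kif5a-201 had 15330, 15971 and 16831 in Sham against 15400, 15814 and 17046 in HF-HI, and the VSD difference was −0.01 (95% interval −0.06 to 0.05). Kif5c-201 had 10662, 11150 and 11921 in Sham against 11015, 11614 and 12162 in HF-HI (limma unadjusted p = 0.201). Kif5b-201 had 3182, 3529 and 3920 in Sham against 3129, 3377 and 3724 in HF-HI (limma unadjusted p = 0.232). In all 3 the groups covered nearly the same range, and the sign of the Kif5a and Kif5b differences changed in some of the alternatives.

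Cytoplasmic dynein was represented by its heavy, intermediate and light intermediate chains. Dync1h1-201 (ENSMUST00000018851, chromosome 12, 110601452 to 110666945) was slightly higher in HF-HI. It had 11343, 11768 and 12124 normalized counts in Sham against 11948, 12360 and 12800 in HF-HI, and all 8 HF-HI libraries exceeded the median of Sham. The ranges overlapped between 11948 and 12124. The VSD difference was 0.06 (95% interval 0.02 to 0.11, limma unadjusted p = 0.00994, adjusted p = 0.414), a change of 5.02% in the mean. Its unadjusted p was 0.0943 with the log2 size factor as a covariate and 0.150 in the 9 deeper libraries.

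Among the intermediate chains, which link the heavy chain to dynactin, Dync1i1 had 2 listed transcripts with differences of opposite sign, neither past the test of level. Dync1i1-203 had 146, 209 and 236 normalized counts in Sham against 81.3, 141 and 214 in HF-HI (limma unadjusted p = 0.0683), and 7 of 8 HF-HI libraries were under the median of Sham. Dync1i1-204 had 428, 476 and 511 in Sham against 448, 499 and 608 in HF-HI (limma unadjusted p = 0.152). In the share test both had an unadjusted p of 0.0238 and an adjusted p of 0.309. The gene sum was 667 ± 47.2 in Sham against 665 ± 56.8 in HF-HI.

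Dync1i1-203 and Dync1i1-204 differ in the coding sequence by 33 bases at the start of an exon (chromosome 6, 5769701 to 5769733, GRCm38, plus strand) and in their first exons. The junction is shown because this stretch is the coding difference between the pair, with the 33 bases in capitals and 15 shared bases on each side in lower case, 5′ to 3′ from the GENCODE M21 transcripts.
Dync1i1-203: cggagccccctctagtgagcactcccagtg
Dync1i1-204: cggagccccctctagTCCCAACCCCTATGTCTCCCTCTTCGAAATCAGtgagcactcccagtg
Dync1i1-204, which has the longer coding sequence, was the more abundant in both groups.

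The remaining dynein-1 chains stayed close to Sham. Dync1i2-208 had 264, 423 and 525 normalized counts in Sham against 339, 407 and 475 in HF-HI (limma unadjusted p = 0.637). The light intermediate chains bind adaptors that select cargo. Dync1li1-201 had 567, 586 and 624 in Sham against 561, 600 and 647 in HF-HI, with 0.01 as the difference in VSD (95% interval −0.02 to 0.04). Dync1li2-201 had 2421, 2451 and 2614 in Sham against 2443, 2473 and 2609 in HF-HI, with 0.01 as the difference in VSD (95% interval −0.03 to 0.04). On the VSD scale, which compresses low counts, their intervals were among the narrowest of the members. On the log2 scale of the gene sums (voom) the 95% interval was −0.06 to 0.10 for Dync1li1 and −0.04 to 0.06 for Dync1li2. For Dync1h1 it was 0.02 to 0.11, narrower than for Dync1li1. Dync2h1, the heavy chain of the dynein that works in cilia, had 3 listed transcripts, none of them called, with log2 ratios from −0.33 to 0.14 and a gene sum of 984 ± 62.1 in Sham against 975 ± 39.9 in HF-HI.

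None of the 10 dynactin transcripts of 6 genes was called, and their median log2 ratio was 0.02. Dctn1 encodes the large subunit that binds dynein and microtubules. Its most abundant transcript, Dctn1-203 (ENSMUST00000113913), had 523, 626 and 748 normalized counts in Sham against 354, 663 and 919 in HF-HI (limma unadjusted p = 0.980). Dctn2-201 had 932, 1050 and 1122 in Sham against 995, 1103 and 1185 in HF-HI (limma unadjusted p = 0.131). Dctn3-201 had 353, 362 and 531 in Sham against 300.03, 397 and 454 in HF-HI (limma unadjusted p = 0.832). In the 9 deeper libraries the Dctn3 difference was 0.06 in VSD with an unadjusted p of 0.0212. Dctn5, with a gene sum of 283 ± 17.1 in Sham against 254 ± 44.2 in HF-HI, had the lowest log2 difference of the 31 gene sums at −0.17 (voom, unadjusted p = 0.0664).

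The kinesin-3 family, whose members carry synaptic vesicle precursors and other membrane cargo, held 11 transcripts of 6 genes, of which the 2 called were both Kif1b and both higher. Kif1b makes a long and a short protein that share the motor domain and differ in the tail. The long form Kif1b-203 (ENSMUST00000060537, chromosome 4, 149176319 to 149307692, minus strand, 49 exons) had 9102, 9467 and 9877 normalized counts in Sham against 9292, 9962 and 10313 in HF-HI, with 7 of 8 HF-HI libraries above the median of Sham. The VSD difference was 0.05 (95% interval 0.002 to 0.11, limma unadjusted p = 0.0420, adjusted p = 0.554). It missed 0.05 in 15 of 26 alternatives, 10 of them with a single library left out, which were Sham replicates 1, 2, 3, 5 and 6 and HF-HI replicates 2, 4, 6, 7 and 8, with an unadjusted p up to 0.0905 among these 10. With the size factor as a covariate it was 0.268, and in the 9 deeper libraries 0.449.

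The short form Kif1b-201 (ENSMUST00000030806, 149233734 to 149307623, 21 exons) had 316, 360 and 505 in Sham against 369, 486 and 557 in HF-HI. All 8 HF-HI libraries exceeded the median of Sham. Its VSD difference was 0.09 (95% interval 0.01 to 0.17, limma unadjusted p = 0.0255, adjusted p = 0.514) and its log2 ratio 0.27. In the 4 fits that left out Sham replicate 1, 2 or 5, or replicate 1 of HF-HI, the unadjusted p lay between 0.0509 and 0.0604. In the 9 deeper libraries it was 0.0537, and with the size factor as a covariate 0.0205. The Kif1b share test gave an unadjusted p of 0.221 for the short form and 0.899 for the long form. A further listed transcript, Kif1b-202 with 47 exons, had 216, 459 and 533 in Sham against 59.9, 415 and 809 in HF-HI. It was not called (limma unadjusted p = 0.721, diffSplice unadjusted p = 0.253), and its log2 ratio was −0.03.

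Kif1a, a vesicle motor of axons, was not called. Its 4 listed transcripts had log2 ratios from −0.12 to 0.21, and the gene sum was 9822 ± 327 in Sham against 10145 ± 478 in HF-HI, a log2 difference of 0.04 (voom, unadjusted p = 0.189). Kif1a-203 (ENSMUST00000171556) had 602, 3648 and 4165 in Sham against 2949, 3687 and 5163 in HF-HI. The value of 602 was Sham replicate 6, in which Kif1a-204 had its highest value of 5870. Kif1a-204 had its lowest, 2083, in HF-HI replicate 5, where Kif1a-203 was highest. The single transcripts Kif13a, Kif13b, Kif16b and Kif1c had mean levels from 285 to 477 normalized counts in Sham and were not called.

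In the kinesin-4 family 1 of 5 transcripts was called. Kif21b encodes a neuronal kinesin that acts on microtubule growth. Kif21b-201 (ENSMUST00000075164, chromosome 1, 136131389 to 136177998, plus strand) had 151, 210 and 297 normalized counts in Sham against 201, 264 and 409 in HF-HI, with 7 of 8 HF-HI libraries above the median of Sham. The VSD difference was 0.11 (95% interval 0.02 to 0.21, limma unadjusted p = 0.0226, adjusted p = 0.497) and the log2 ratio was 0.45. The unadjusted p was 0.0528 without Sham replicate 7, 0.0965 with the size factor as a covariate and 0.294 in the 9 deeper libraries.

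The listed partner of this transcript, Kif21b-204, which is no member, has an additional exon of 180 bases (136173472 to 136173651) and is annotated for nonsense-mediated decay. It had 366, 474 and 649 in Sham against 349, 425 and 592 in HF-HI (limma unadjusted p = 0.343) and was the more abundant of the pair in both group means. In the share test both had an unadjusted p of 0.0300 and an adjusted p of 0.317. The Kif21b sum was 701 ± 83.3 in Sham against 737 ± 51.2 in HF-HI. Most of this sum was Kif21b-204, with means of 489 in Sham and 448 in HF-HI. Kif21a, the related gene, had 4 transcripts, none called. Its most abundant, Kif21a-204 (ENSMUST00000109287), had 893, 982 and 1172 in Sham against 743, 989 and 1469 in HF-HI (limma unadjusted p = 0.908).

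**Figure D5:**
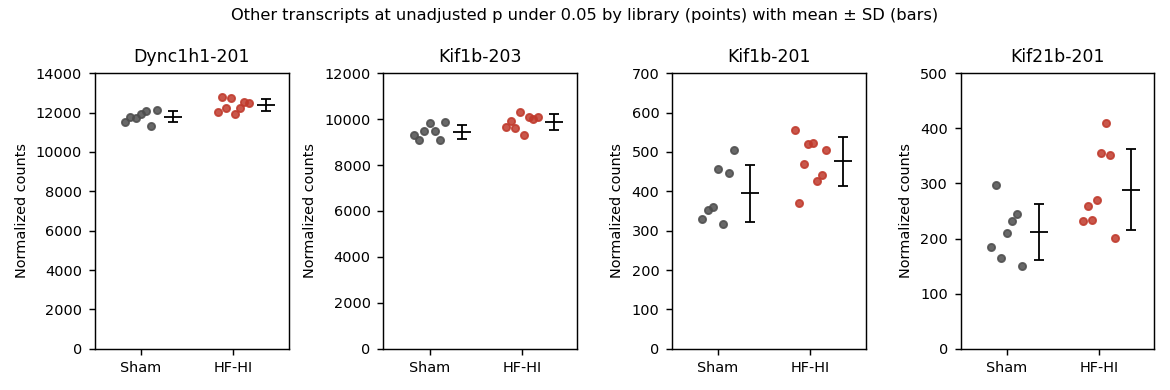
Normalized counts of Dync1h1-201, Kif1b-203, Kif1b-201 and Kif21b-201 in each Sham and HF-HI library (points), with mean and SD as bars and axes from 0. All 8 HF-HI libraries exceed the Sham median of Dync1h1-201 (11768) and of Kif1b-201 (360), and the ranges of the groups overlap in each panel.

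The kinesin-2 genes Kif3a, Kif3b and Kif3c, motors of axons and cilia, gave no call. Kif3a-203 (ENSMUST00000120613) had 508, 592 and 638 normalized counts in Sham against 486, 562 and 634 in HF-HI (limma unadjusted p = 0.390). The 4 kinesin-2 transcripts had log2 ratios between −0.05 and 0.10. Kif2a, a kinesin that takes microtubules apart at their ends, was not called. Kif2a-201 (ENSMUST00000022204) had 449, 495 and 519 in Sham against 322, 488 and 589 in HF-HI (limma unadjusted p = 0.598). Kif1bp had 1008 ± 69.5 in Sham against 979 ± 60.3 in HF-HI.

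Summed per gene, the picture was one of small differences. With voom on recovered reads, 2 of 31 motor genes had an unadjusted p under 0.05, both higher in HF-HI (6.45%), beside 9.34% of all 7870 genes in either direction and 5.1% in the higher direction. At an adjusted p under 0.1 there were 0 of 31, and over all genes the share called was 0%. Dync1h1 had a log2 difference of 0.07 (SE 0.02, voom unadjusted p = 0.00437, adjusted p = 0.293) and Kif1b of 0.06 (SE 0.02, voom unadjusted p = 0.0148, adjusted p = 0.413). With the log2 size factor as a covariate neither passed 0.05 (voom unadjusted p = 0.0615 and 0.0938). In the 9 deeper libraries the unadjusted p was 0.109 for Dync1h1 and 0.260 for Kif1b. Leaving out HF-HI replicates 2 and 4 gave 0.0502 for Kif1b.

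Of the 31 gene sums 18 were higher and 13 lower in HF-HI, from −0.17 to 0.13 on the log2 scale with a median of 0.01, where the median over all genes was −0.0037. For 25 of the 31 the 95% interval lay within a log2 difference of 0.2 either way, as it did for 54.3% of all genes. The 6 exceptions were Dctn3, Dctn5, Dctn6, Kif1c, Kif16b and Kif21b, none with a group mean above the 737 normalized counts of Kif21b. The interval narrows with abundance.

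Motors act with adaptors and on tracks, and these genes were counted in the same fit. Of the adaptors, regulators and dynein light chains 35 of 46 gene names were listed with 57 transcripts. The names include Kif1bp, which is also a member by the name rule, and Kifbp, which was not listed. Of the 57 transcripts 2 were higher and 2 lower at an unadjusted p under 0.05, none at an adjusted p under 0.1. This was 7.02% of the list, beside 8.83% of all transcripts, so the list was not called more often than the rest, and its 4 called transcripts are given as values. Clstn1, a membrane cargo linked to kinesin-1 by its light chain, had 1736 ± 133 normalized counts in Sham against 2032 ± 225 in HF-HI (limma unadjusted p = 0.00612, adjusted p = 0.395). Htt, a scaffold between vesicles and motors, had 2439 ± 61.5 and 2598 ± 133 (limma unadjusted p = 0.0139). The lower pair was Dynlrb1, a dynein light chain, with 575 ± 29.1 and 532 ± 19.8 (limma unadjusted p = 0.0113), and Bicd1, an adaptor of dynein, with 913 ± 40.8 and 859 ± 46.5 (limma unadjusted p = 0.0444).

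Of the genes of the track, the tubulins and the proteins that bind or modify them, 38 of 40 were listed with 67 transcripts, 2 higher and 1 lower at an unadjusted p under 0.05, none at an adjusted p under 0.1. This was 4.48% of the list, beside 8.83% of all transcripts. The 3 were transcripts of stathmins, which bind free tubulin, and they are likewise given as values. Stmn4 had 510 ± 71.7 normalized counts in Sham against 595 ± 39.5 in HF-HI (limma unadjusted p = 0.00893), and Stmn1 had 3638 ± 137 and 3866 ± 205 (limma unadjusted p = 0.0265). Stmn2 had 1019 ± 70.7 and 949 ± 48.3 (limma unadjusted p = 0.0421). The summed level of the track genes spanned 101028 to 104964 in Sham against 101536 to 106100 in HF-HI.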

How the data were processed

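Per the study's methods and the labels, the authors prepared total RNA libraries, aligned reads to mm10 with STAR, estimated counts per Ensembl transcript and deposited variance-stabilized values of DESeq2 on the log2 scale, a column per library. The annotation release is not given in the sources used here. The transformation was inverted, and 100% of values came out as whole reads within 0.1, which gave size factors and normalized counts (reads divided by the size factor). A read was worth between 0.679 and 2.00 normalized counts. Intervals cover the spread between libraries.

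Transcripts were matched to GENCODE M21 (GRCm38), and 10238 of 10370 had an entry. Group differences were fitted over all transcripts with limma 3.58.1 in R 4.3.3 (eBayes with trend, group as the only term), over gene sums with voom, and over shares with diffSplice, two-sided, with Benjamini-Hochberg adjustment. Gene sums covered 7870 units, unmatched transcripts counted singly. Single values used exact permutation in scipy 1.17.1. The code was tested on simulated data: with 200 of 10370 transcripts changed by 0.5 on the log2 scale, limma called 176 with 18 false calls. In the same run the share test called 47 of 81 testable changed transcripts, with 10 calls in genes without a change. The simulated counts had the same dispersion for every transcript and no error in dividing reads among transcripts. They check the code and do not give the power to find such a change in these libraries. Alternatives changed the scaling, the filter, the weights, a covariate for depth, a replicate block and the libraries used.

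The members and lists were chosen with earlier results of these data known. Named transcripts were those at an unadjusted p under 0.05, those past an adjusted p of 0.1 in shares, and the most abundant listed transcript of 18 fixed motor genes. Others named were chosen after their values were seen. Same-group pairs differed beyond sampling noise (chi-square per transcript at least 9.55).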

Additional observations from a re-analysis of the deposited data

Results flagged for a closer look

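A gap between a library and the rest of its group that was large against the group's range (Dixon's 95% limit) was found in 4 of 50 groups of values examined, where chance gives about 1 in 20. Kif1a-203 (ENSMUST00000171556) had 602 normalized counts in Sham replicate 6, with the other Sham libraries from 2811 to 4165. The same transcript had 5163 in HF-HI replicate 5, with the other HF-HI libraries from 2949 to 3966. Dctn3-201 had 531 normalized counts in Sham replicate 3, with the others from 353 to 400 in that group. It had 300.03 in HF-HI replicate 2, with the others from 385 to 454.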

How the results depend on the processing

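No motor transcript or gene sum passed an adjusted p of 0.1 under any alternative run. With the log2 size factor as a covariate, the motor counts at an unadjusted p under 0.05 were 2 transcripts, 0 gene sums and 1 share. Over all features, 5.14% of transcripts, 6.16% of gene sums and 9.59% of shares were under 0.05. In the main fit these were 8.83%, 9.34% and 13.3%. With the covariate 0 motor shares passed the adjusted threshold. In libraries with a size factor above 1, chosen after seeing the data, the motor counts were 1, 1 and 3. Over all features these libraries gave 5.22%, 5.18% and 9.42%. No motor share passed the adjusted threshold in them, and the 1 transcript and the 1 gene were both Dctn3. Without HF-HI replicates 2 and 4, also chosen after seeing the data, 0 motor shares passed the adjusted threshold. With a mean of at least 300 normalized counts 2 shares of 17 tested had an unadjusted p under 0.05, beside 12.3% of all. Kif21b-201 was not tested there. Leaving out each library in turn gave 4 to 9 transcripts, 2 to 4 gene sums and 3 to 7 shares at an unadjusted p under 0.05, 1 to 2 shares at the adjusted threshold, and a log2 size factor difference of −0.65 to −0.44. Over all features, in the same order, these fits gave 7.21 to 9.52%, 7.84 to 10.4% and 12.3 to 13.9% under 0.05 unadjusted. The highest motor gene count (4) and the lowest motor share count (3) came without Sham replicate 4. In the fits that left out Sham replicate 2, Sham replicate 5 or HF-HI replicate 4, 1 motor share passed the adjusted threshold.

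The replicate numbers did not pair the libraries (correlations of same-numbered deviations from −0.14 to 0.09). With a replicate block, 5 motor transcripts, 2 gene sums and 3 shares had an unadjusted p under 0.05. Over all features the block gave 8.59%, 8.89% and 12.2%. With the block 0 motor shares passed the adjusted threshold (Klc1-202 diffSplice adjusted p = 0.104, Klc1-203 0.138). Under this block Kif1b-201 and Kif1b-203 had unadjusted limma p-values of 0.0684 and 0.0924, and Dync2h1-204, which was not called without the block, had 0.0225. None of the 6 transcripts called in the main fit, nor the 2 Klc1 shares, changed direction in any alternative. The Dctn1-204 share, not called in the main fit, had an unadjusted p under 0.05 in both directions. It was −1.52 without HF-HI replicate 1 (diffSplice unadjusted p = 0.0478) and 0.72 without HF-HI replicate 5 (diffSplice unadjusted p = 0.0224). Dctn1-204 had 0 normalized counts in HF-HI replicate 5. Listed transcripts start at a mean of 107.9 normalized counts, which limits what could be seen of the 25 motor genes not listed.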
